A study of Homo sapiens with 9 samples.

Results

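The genes described here are the D-type cyclins CCND1, CCND2 and CCND3, the kinases CDK4 and CDK6 that they activate, and 5 inhibitors of cyclin-dependent kinases, CDKN1A, CDKN1B, CDKN1C, CDKN2A and CDKN2C. They were taken by symbol from a table of FPKM (fragments scaled by transcript length and by library size), in which all 10 were found among 23610 genes. Of the 10, 8 reached a mean of 1 FPKM over all libraries and were tested, as were 11348 genes in all; CDK6 and CDKN1C did not reach it.

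GIST-T1 is an established line of human gastrointestinal stromal tumour (GIST) cells, a sarcoma usually driven by the receptor tyrosine kinase KIT, and its polyA RNA was measured. The 9 libraries fall into 3 groups of 3, with an sgRNA against HAND1, an sgRNA against ETV1, or an sgRNA against Luciferase as the control. HAND1 belongs to the basic helix-loop-helix family of transcription factors and ETV1 to the ETS family. All groups are 1 cell line, and the labels call the perturbation a knockdown without naming the effector protein, the time after delivery, or separate cultures behind the replicates. The p-values therefore measure spread among libraries that may be technical replicates.

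D-type cyclins bind CDK4 or CDK6 early in the cell cycle, and the active kinase phosphorylates the retinoblastoma protein, which releases E2F transcription factors to drive genes of DNA replication. Inhibitors of the INK4 family, among them the INK4a product of CDKN2A and the product of CDKN2C, bind CDK4 and CDK6 and keep the cyclin away. Inhibitors of the CIP/KIP family, the products of CDKN1A, CDKN1B and CDKN1C, bind complexes of cyclin and kinase, above all those of CDK2. Loss of CDKN2A is a known lesion of advanced GIST.

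The promoters of CDK4 and CDK6 are shown because these paralogues were among the most and the least abundant of the 10 transcripts, and those of CDKN2A because its 1 FPKM value covers transcripts from distinct start sites. In RefSeq (GRCh38.p14), 1 window of CDK4, 1 of 2 windows of CDK6 and both windows of CDKN2A are printed 5′ to 3′, each from 250 bases before the start to 50 after it. All 4 lie on the minus strand, at chr12:57752261-57752560 for CDK4, chr7:92836524-92836823 for CDK6, chr9:21995275-21995574 for the upstream CDKN2A start (which gives the ARF transcript) and chr9:21974808-21975107 for the downstream one (which gives the INK4a transcript). Capitals mark CANNTG, the E-box bound by basic helix-loop-helix factors, and CCGGAA, a core of many ETS sites, each on either strand; no CANNTG overlapped a CCGGAA, and CACGTG is a form of CANNTG.
CDK4: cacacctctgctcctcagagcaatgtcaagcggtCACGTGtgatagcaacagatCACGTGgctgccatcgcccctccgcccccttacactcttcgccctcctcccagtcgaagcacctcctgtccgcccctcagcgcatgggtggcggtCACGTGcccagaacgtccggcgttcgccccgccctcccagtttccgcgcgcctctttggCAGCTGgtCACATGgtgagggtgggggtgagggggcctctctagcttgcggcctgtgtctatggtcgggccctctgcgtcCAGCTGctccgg
CDK6: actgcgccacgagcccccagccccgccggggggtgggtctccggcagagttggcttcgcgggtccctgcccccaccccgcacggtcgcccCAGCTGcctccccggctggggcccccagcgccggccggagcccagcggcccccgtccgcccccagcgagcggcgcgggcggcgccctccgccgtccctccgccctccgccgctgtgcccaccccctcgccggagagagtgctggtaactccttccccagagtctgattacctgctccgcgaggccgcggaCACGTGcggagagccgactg
CDKN2A upstream: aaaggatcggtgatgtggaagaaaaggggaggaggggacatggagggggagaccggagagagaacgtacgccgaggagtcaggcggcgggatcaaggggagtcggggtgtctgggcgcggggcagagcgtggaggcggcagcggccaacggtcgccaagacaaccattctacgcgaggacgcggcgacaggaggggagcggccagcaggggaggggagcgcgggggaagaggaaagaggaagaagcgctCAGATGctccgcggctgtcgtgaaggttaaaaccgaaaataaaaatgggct
CDKN2A downstream: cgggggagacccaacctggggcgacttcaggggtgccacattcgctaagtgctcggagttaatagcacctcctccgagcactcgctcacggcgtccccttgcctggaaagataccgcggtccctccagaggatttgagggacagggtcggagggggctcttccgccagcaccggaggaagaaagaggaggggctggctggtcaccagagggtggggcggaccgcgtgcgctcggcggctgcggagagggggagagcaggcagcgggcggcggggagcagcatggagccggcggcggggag
The CDK4 window held 6 CANNTG, of which 3 were CACGTG, and 0 CCGGAA. The CDK6 window held 2 CANNTG, of which 1 was CACGTG, the upstream CDKN2A window held 1 CANNTG, and the downstream one held 0. Of 35116 windows of the same length, 68.7% held CANNTG, 7.26% held CACGTG and 17.2% held CCGGAA. Windows were found for 7 of the 10 genes. Among those not printed, the other CDK6 window held 0 of each motif, CDKN1A had 3 CANNTG and 1 CCGGAA, and CDKN1B had 0 of each. CDKN2C had 4 CANNTG over 3 windows, of which 2 were CACGTG, and CCND3 had 1 CANNTG and 1 CCGGAA over 3 windows. These matches are a description of the letters in each window, and binding was not measured.

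Both targeted transcripts were lower with their own sgRNA than with Luciferase sgRNA, with log2 differences of -1.55 for HAND1 and -1.71 for ETV1 (limma adjusted p = 2.07e-07 and 6.22e-07). Differences and their standard errors are on the log2(FPKM + 1) scale throughout, which understates changes of low genes, and a gene was called at an adjusted p under 0.05. Relative to Luciferase sgRNA replicate 1, the libraries' depth lay between 0.637 and 1 and their absolute depth is unknown. Luciferase sgRNA replicate 3 stood apart, with the highest FPKM sum (538689, against 451286 to 479939 in the others) and short transcripts (longest form under 1000 nt) at a median of 0.49 (log2) above the other Luciferase sgRNA libraries. All 8 GIST markers averaged at least 1 FPKM; against Luciferase sgRNA, 5 fell with HAND1 sgRNA, HAND1 itself among them, and 2 with ETV1 sgRNA, ETV1 itself and DUSP6 (6.60% and 0.203% of all genes tested were called). Of markers of other cell types, 9 of 10 blood and endothelial, 7 of 9 neuronal and glial and 5 of 9 epithelial markers averaged less than 1. Summed blood and endothelial markers lay at 5.80 to 9.37 FPKM with HAND1 sgRNA, 7.62 to 11.2 with ETV1 sgRNA and 4.92 to 6.03 with Luciferase sgRNA. Summed neuronal and glial markers lay at 62.8 to 67.4, 56.8 to 64.2 and 53.4 to 61.2 FPKM in the same groups, and summed epithelial markers at 209 to 224, 226 to 251 and 229.8 to 268. Each of these sums was mostly 1 gene, TUBB3 at 51.4 to 64.3 FPKM and KRT18 at 201 to 261 over the 9 libraries. Among blood and endothelial markers, CD68 lay at 3.52 to 6.68 FPKM. HBB was at 3.59 in ETV1 sgRNA replicate 1 and at most 1.11 in the other libraries. MAP2, a neuronal protein of microtubules, and CD68, a macrophage protein, rose with HAND1 sgRNA against Luciferase sgRNA (0.64 and 0.50, limma adjusted p = 0.0148 and 0.0466), CD68 not without Luciferase sgRNA replicate 3 (0.42, adjusted p = 0.108). The part of these markers in the results was not tested.

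The 10 genes ranged in level from CDK6, near silent, to CDK4 and CDKN2A, the most abundant. In the pair of CDK4 and CDK6 and among the CIP/KIP genes, 1 gene carried nearly all of the FPKM. CDK4, the D-cyclin partner of many tissues, averaged 146 ± 3.90 FPKM with HAND1 sgRNA, 149.6 ± 8.02 with ETV1 sgRNA and 165 ± 21.5 with Luciferase sgRNA (SD, n = 3 each). CDK6, its close paralogue, stayed between 0.0100 and 0.196 FPKM in the 9 libraries, and its share of the FPKM of the pair was at most 0.129% in any library. CDKN2A averaged 170.4 ± 8.95 FPKM with HAND1 sgRNA, 158 ± 15.1 with ETV1 sgRNA and 166 ± 37.6 with Luciferase sgRNA (SD, n = 3 each), and its mean over all libraries exceeded that of 95.9% of the genes tested. CDKN1B carried 93.5% to 96.9% of the FPKM of the 3 CIP/KIP genes, with CDKN1A at 2.28% to 4.09% and CDKN1C at 0.805% to 2.99%. All 3 D-type cyclins were abundant: CCND3 gave 43.0% to 45.4% of their FPKM, CCND2 29.3% to 34.3% and CCND1 22.3% to 25.3%. So were both INK4 genes of the 10, with CDKN2A at 76.8% to 81.5% of their FPKM and CDKN2C at 18.5% to 23.2%.

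**Figure D1:**
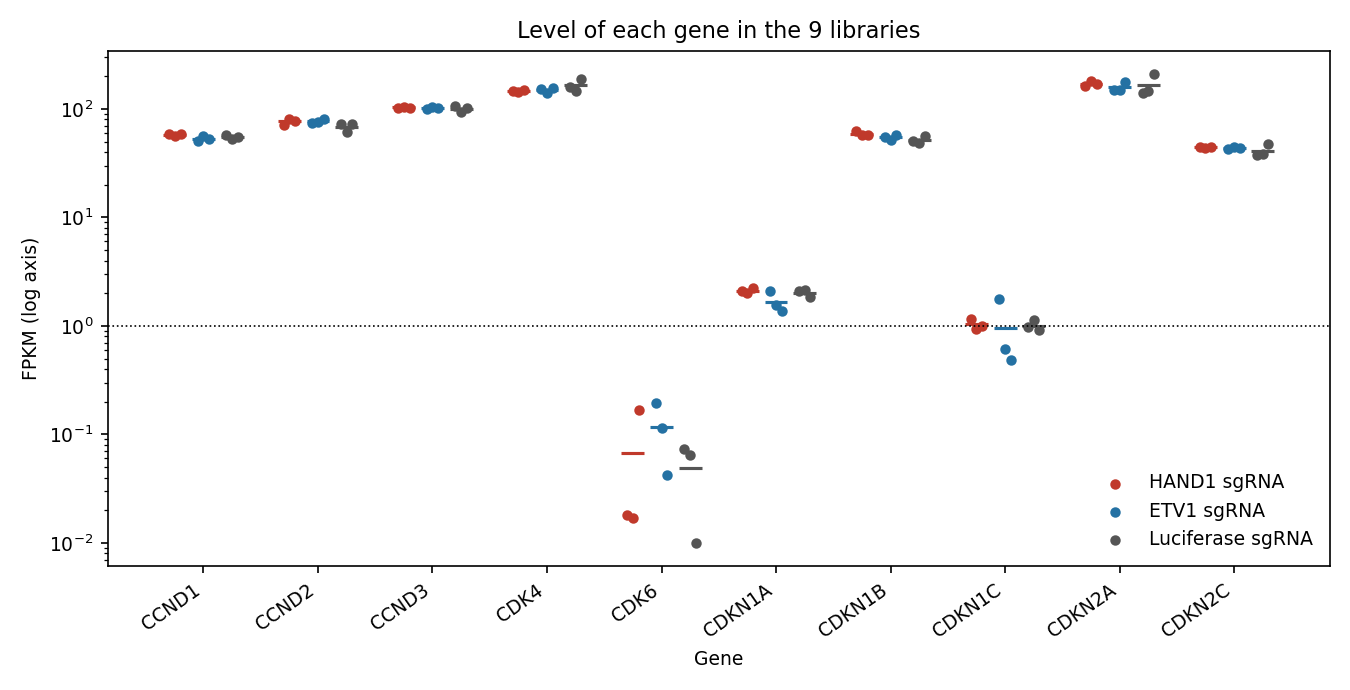
FPKM (log axis) of the 10 genes in each of the 9 libraries. Points are libraries, short bars are group means, and the dotted line is the 1 FPKM used to choose genes for testing; CDK6 is at most at 0.196 FPKM, while CDK4 and CDKN2A lie above the other 8 genes in every library.

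None of the 8 genes tested was called in any of the 3 comparisons with all libraries in the fit. With HAND1 sgRNA against Luciferase sgRNA, limma called 749 of 11348 genes (6.60%), and 0 of 8 here, with 1 of 8 at an unadjusted p under 0.05 (CDKN1B) and a median log2 difference of 0.06 against -0.01 over all genes tested. With ETV1 sgRNA against Luciferase sgRNA it called 23 genes (0.203%), and 0 of 8 here, with 0 at an unadjusted p under 0.05 and a median of -0.02 against -0.01. Between HAND1 sgRNA and ETV1 sgRNA it called 460 genes (4.05%), and 0 of 8 here, with 0 at an unadjusted p under 0.05 and a median of 0.06 against -0.00. An unadjusted p under 0.05 was found for 20.3%, 8.20% and 15.4% of all genes tested in these 3 comparisons. Without Luciferase sgRNA replicate 3, which lets CDKN1C pass the filter, 1 of 9 was called with HAND1 sgRNA against Luciferase sgRNA (CDKN2C) and 0 in the others, with 4, 3 and 1 at an unadjusted p under 0.05. Of all genes tested in that setting, 6.24%, 0.247% and 5.22% were called. An unadjusted p under 0.05 was found there for 20.1%, 10.1% and 17.9% of them, against 44.4%, 33.3% and 11.1% of the 9 genes. The comparisons with Luciferase sgRNA share their 3 control libraries. In bulk RNA, a change in the share of cells that express a gene and a change in RNA per cell cannot be told apart.

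**Figure D2:**
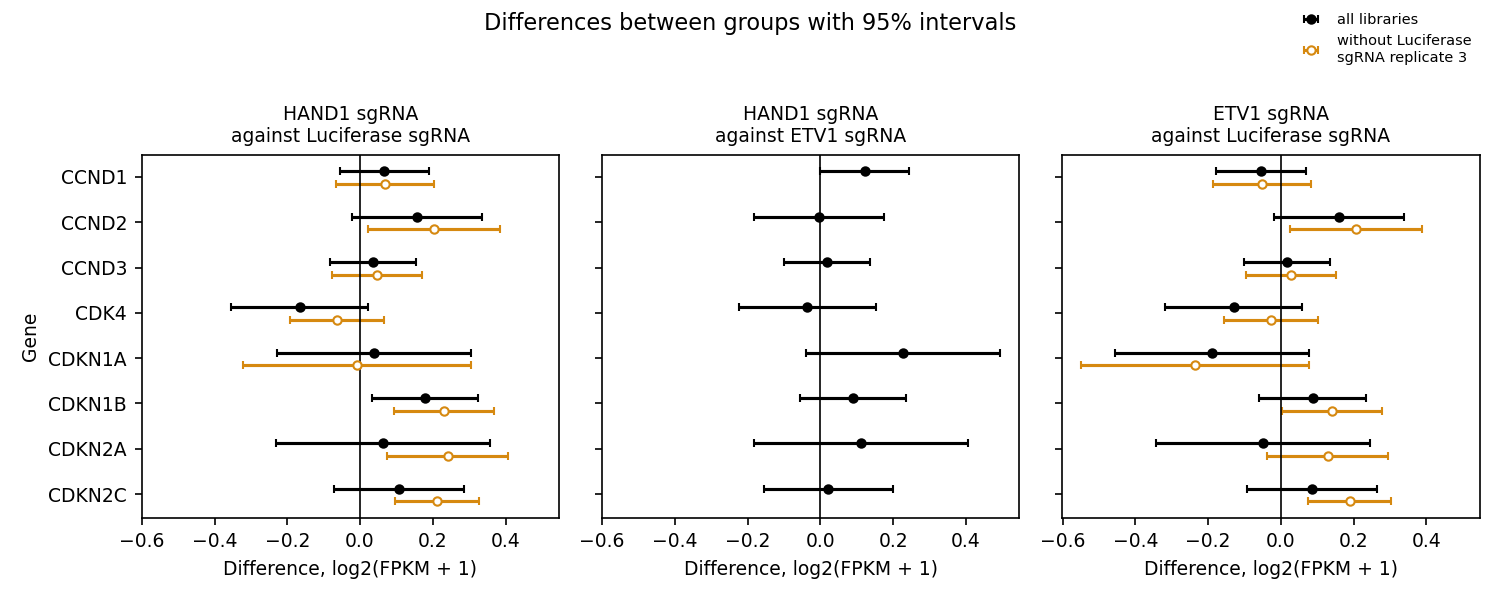
Log2(FPKM + 1) differences (points) with 95% intervals (bars) of the 8 genes tested, for HAND1 sgRNA against Luciferase sgRNA, HAND1 sgRNA against ETV1 sgRNA, and ETV1 sgRNA against Luciferase sgRNA. Filled points use all 9 libraries and open points leave out Luciferase sgRNA replicate 3, where the CDKN2C difference with HAND1 sgRNA is 0.21.

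Of the cyclins, CCND3, which is widely expressed and has a large part in blood cell growth, was the least variable. It had 102, 104 and 103 FPKM with HAND1 sgRNA, 98.7, 105 and 102 with ETV1 sgRNA, and 105, 94.5 and 102 with Luciferase sgRNA. The groups overlapped in every comparison. Its log2 difference was 0.04 (95% interval -0.08 to 0.15) for HAND1 sgRNA and 0.02 (-0.10 to 0.14) for ETV1 sgRNA against Luciferase sgRNA, and 0.02 (-0.10 to 0.14) for HAND1 sgRNA against ETV1 sgRNA. Its spread within groups was a log2 SD of 0.05, smaller than that of all but 8.53% of the genes tested, whose median was 0.11.

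CCND1, a cyclin that mitogen signalling induces in many cell types, had 58.4, 56.7 and 58.3 FPKM with HAND1 sgRNA, 50.7, 56.3 and 52.3 with ETV1 sgRNA, and 57.5, 52.7 and 55.4 with Luciferase sgRNA. All 3 HAND1 sgRNA libraries lay above all 3 ETV1 sgRNA libraries, a separation that 22.4% of the genes tested had in one direction or the other. The difference between those groups was 0.12 (-0.00 to 0.24; limma adjusted p = 0.334). Against Luciferase sgRNA it was 0.07 (-0.06 to 0.19) for HAND1 sgRNA and -0.05 (-0.18 to 0.07) for ETV1 sgRNA, with overlapping groups.

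CCND2, a cyclin prominent in ovary and lymphocytes, had 70.5, 81.3 and 77.8 FPKM with HAND1 sgRNA, 73.5, 75.8 and 80.6 with ETV1 sgRNA, and 72.0, 60.9 and 73.3 with Luciferase sgRNA. Each ETV1 sgRNA library lay above each Luciferase sgRNA library, while the HAND1 sgRNA libraries overlapped with both other groups. Groups that do not overlap were found for 12.9% of the genes tested with ETV1 sgRNA against Luciferase sgRNA. The log2 difference from Luciferase sgRNA was 0.16 (-0.02 to 0.33; limma adjusted p = 0.316) for HAND1 sgRNA and 0.16 (-0.02 to 0.34; adjusted p = 0.671) for ETV1 sgRNA, and Luciferase sgRNA replicate 2, at 60.9, was the lowest library of all. Summed over the 3 cyclins, the level was 238 ± 5.51 FPKM with HAND1 sgRNA, 232 ± 7.58 with ETV1 sgRNA and 225 ± 14.5 with Luciferase sgRNA (SD, n = 3 each).

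CDK4 had 145, 142 and 150.1 FPKM with HAND1 sgRNA, 152, 141 and 156 with ETV1 sgRNA, and 158, 147 and 189 with Luciferase sgRNA. Luciferase sgRNA replicate 3 was the highest library, and the groups overlapped. The difference from Luciferase sgRNA was -0.17 (-0.35 to 0.02; limma adjusted p = 0.312) for HAND1 sgRNA and -0.13 (-0.32 to 0.06; adjusted p = 0.767) for ETV1 sgRNA. Without Luciferase sgRNA replicate 3 these values were -0.06 (-0.19 to 0.07) and -0.03 (-0.16 to 0.10). In the annotation CDK4 overlaps TSPAN31, and the libraries are non-stranded, so reads of the shared stretch cannot be assigned to either gene by strand. The same limit holds for CCND2, CCND3, CDK6 and CDKN1A, which also overlap other annotated genes (CCND2-AS1 for CCND2, DINOL for CDKN1A).

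CDK6 had 0.0179, 0.0169 and 0.168 FPKM with HAND1 sgRNA, 0.196, 0.114 and 0.0420 with ETV1 sgRNA, and 0.0725, 0.0646 and 0.0100 with Luciferase sgRNA. The groups overlapped. The HAND1 sgRNA and ETV1 sgRNA libraries spread more widely than those with Luciferase sgRNA, with HAND1 sgRNA through replicate 3 alone. All of these values are near 0, and without read counts a difference in spread cannot be read as a trait of a group. No fold is given at this level. Fitted without the filter on low values, over 17137 genes, its differences were 0.02 for HAND1 sgRNA and 0.09 for ETV1 sgRNA against Luciferase sgRNA (limma adjusted p = 0.926 and 0.831).

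Of the CIP/KIP inhibitors, CDKN1B, whose product accumulates in resting cells, had 61.9, 56.9 and 57.0 FPKM with HAND1 sgRNA, 55.1, 52.0 and 58.0 with ETV1 sgRNA, and 50.5, 49.0 and 55.7 with Luciferase sgRNA. The HAND1 sgRNA libraries all lay above the Luciferase sgRNA libraries, a separation in either direction that 25.7% of the genes tested had, and the ETV1 sgRNA libraries overlapped with both. The difference was 0.18 (SE 0.066, 95% interval 0.03 to 0.32, unadjusted p = 0.0218, limma adjusted p = 0.152) for HAND1 sgRNA and 0.09 (-0.06 to 0.23; adjusted p = 0.791) for ETV1 sgRNA. The HAND1 sgRNA difference passed the threshold in 1 alternative, with library weights (0.23, adjusted p = 0.0243), and over the libraries left out in turn its adjusted p ranged from 0.0568 to 0.374.

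CDKN1A, a direct target of the tumour suppressor p53, had 2.08, 1.99 and 2.23 FPKM with HAND1 sgRNA, 2.07, 1.55 and 1.36 with ETV1 sgRNA, and 2.10, 2.13 and 1.83 with Luciferase sgRNA. Its mean was above that of 8.36% of the genes tested. ETV1 sgRNA replicates 2 and 3 were the lowest libraries, and replicate 1 of that group lay among the others. The difference was 0.04 (-0.23 to 0.31; limma adjusted p = 0.896) for HAND1 sgRNA and -0.19 (-0.46 to 0.08; adjusted p = 0.758) for ETV1 sgRNA against Luciferase sgRNA, and 0.23 (-0.04 to 0.49; adjusted p = 0.425) for HAND1 sgRNA against ETV1 sgRNA.

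CDKN1C, an imprinted gene expressed in development, lay just under the filter at a mean of 0.995 FPKM over the 9 libraries. It had 1.15, 0.939 and 1.00 FPKM with HAND1 sgRNA, 1.76, 0.607 and 0.481 with ETV1 sgRNA, and 0.982, 1.12 and 0.907 with Luciferase sgRNA. The highest and the lowest value both came from ETV1 sgRNA libraries. Without the filter, its intervals were wide, -0.46 to 0.50 for HAND1 sgRNA and -0.57 to 0.38 for ETV1 sgRNA against Luciferase sgRNA.

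Of the INK4 inhibitors, CDKN2A had 163, 180.3 and 168 FPKM with HAND1 sgRNA, 149, 149 and 175 with ETV1 sgRNA, and 142, 146 and 209 with Luciferase sgRNA. Luciferase sgRNA replicate 3 was the highest of the 9 libraries and the other Luciferase sgRNA libraries were the lowest. The difference from Luciferase sgRNA was 0.06 (-0.23 to 0.36; limma adjusted p = 0.840) for HAND1 sgRNA and -0.05 (-0.34 to 0.24; adjusted p = 0.962) for ETV1 sgRNA. Without Luciferase sgRNA replicate 3 it was 0.24 (0.07 to 0.41; adjusted p = 0.0947) for HAND1 sgRNA and 0.13 (-0.04 to 0.30; adjusted p = 0.616) for ETV1 sgRNA, so that the direction of the ETV1 sgRNA value turned on that library. CDKN2A is the gene of the 8 with the shortest longest transcript, at 1283 nt, and Luciferase sgRNA replicate 3 lay 0.53 (log2) above the other Luciferase sgRNA libraries in it, more than in 96.0% of the genes tested; the part of transcript length in this was not tested. CDKN2B-AS1 overlaps CDKN2A in the annotation, which without strand leaves shared reads unassigned.

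CDKN2C had 44.9, 43.3 and 44.6 FPKM with HAND1 sgRNA, 42.4, 44.9 and 43.4 with ETV1 sgRNA, and 37.7, 38.4 and 47.5 with Luciferase sgRNA. With all libraries the difference was 0.11 (-0.07 to 0.29; limma adjusted p = 0.507) for HAND1 sgRNA and 0.09 (-0.09 to 0.26; adjusted p = 0.848) for ETV1 sgRNA. Without Luciferase sgRNA replicate 3, at 47.5 the highest library of all, the HAND1 sgRNA difference was 0.21 (0.10 to 0.33) and passed the threshold (limma adjusted p = 0.0373), and the ETV1 sgRNA difference was 0.19 (0.08 to 0.30; adjusted p = 0.280). CDK4, CDKN2A and CDKN2C were thus the genes in which that library set the control level most, lying 0.31, 0.53 and 0.31 (log2) above its group's other libraries, against 0.16 for CDKN1B, 0.14 for CCND2, 0.03 for CCND3, 0.01 for CCND1 and -0.14 for CDKN1A.

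**Figure D3:**
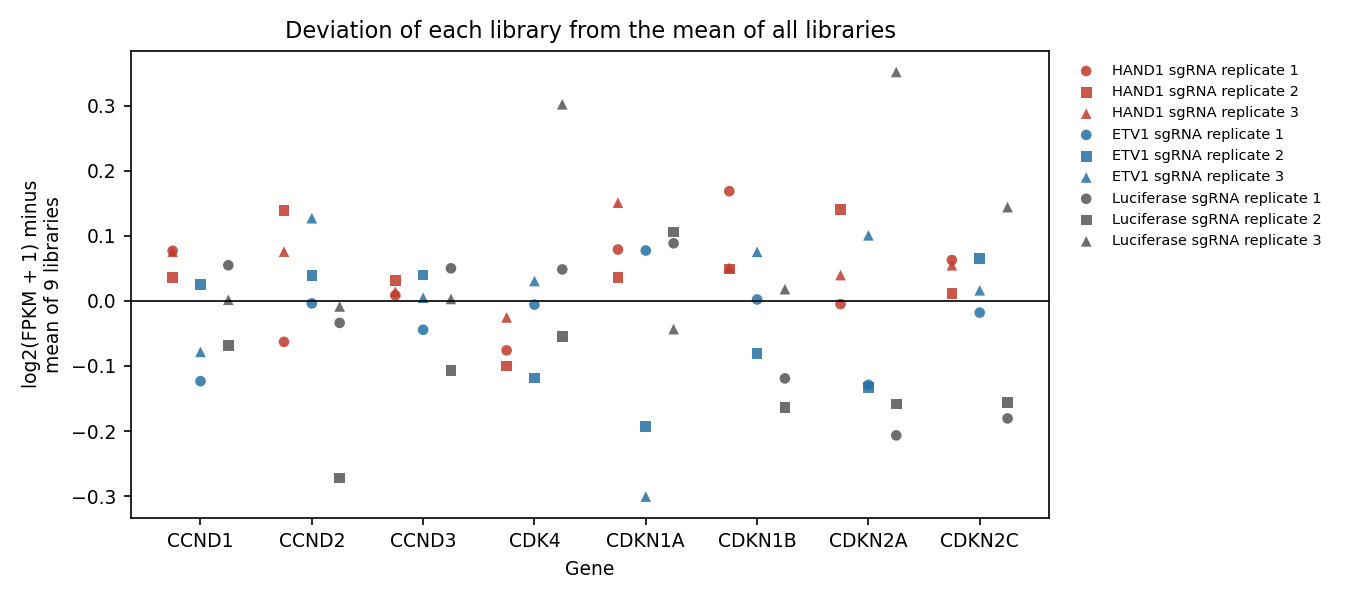
Log2(FPKM + 1) of each library minus the mean of the 9 libraries, for the 8 genes tested. Colours are groups and shapes are replicate numbers; Luciferase sgRNA replicate 3 (grey triangle) is the highest library for CDK4, CDKN2A and CDKN2C, and Luciferase sgRNA replicate 2 (grey square) the lowest for CCND2.

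With HAND1 sgRNA, CDKN2A was at 1.12, 1.27 and 1.12 times the FPKM of CDK4. It was at 0.982, 1.06 and 1.12 times with ETV1 sgRNA, and 0.896, 0.995 and 1.11 times with Luciferase sgRNA. The CDKN2A value covers ARF and INK4a transcripts together, so it is not the level of the INK4a transcript alone. The 3 HAND1 sgRNA ratios lay above the 3 Luciferase sgRNA ratios, with the nearest libraries at 1.12 and 1.11. Of single genes tested, 25.7% separated in one direction or the other between these groups. How often ratios of other gene pairs separate was not tested. Both genes are high in Luciferase sgRNA replicate 3, so their ratio moves less in that library than either gene. RB1, the retinoblastoma protein that the kinases act on, was at 25.4 ± 0.610 FPKM with HAND1 sgRNA, 27.7 ± 2.12 with ETV1 sgRNA and 26.1 ± 1.50 with Luciferase sgRNA (SD, n = 3 each), and was named after its values were seen.

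The neighbours of CDKN2A on chromosome 9 were far lower than CDKN2A. CDKN2B, the adjacent INK4 gene, which TGF-beta induces in epithelial cells, had 0.847, 0.795 and 0.795 FPKM with HAND1 sgRNA, 0.838, 0.360 and 0.365 with ETV1 sgRNA, and 0.331, 0.366 and 0.478 with Luciferase sgRNA. All HAND1 sgRNA libraries lay above all Luciferase sgRNA libraries, a separation that 25.7% of the genes passing the filter had in one direction or the other. ETV1 sgRNA replicate 1 lay with the HAND1 sgRNA libraries. CDKN2B was under the filter. In the fit without the filter its difference was 0.38 (0.12 to 0.64) for HAND1 sgRNA, not called (unadjusted p = 0.00934, limma adjusted p = 0.127). The antisense transcript CDKN2B-AS1 averaged 1.20 FPKM over the libraries, MTAP, an enzyme of the methionine salvage pathway, 8.75, and KLHL9, an adaptor of ubiquitin ligases, 11.7, with 0 of these 3 called in any comparison. C9orf53, DMRTA1, ELAVL2 and IFNE averaged 0.334, 0.0189, 0.00433 and 0 FPKM.

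Of 31 other genes of the machinery for the transition into S phase (E-type cyclins, CDK2, the retinoblastoma family, E2F and DP factors, further inhibitors and ubiquitin ligase parts), 30 were tested. Against Luciferase sgRNA 1 rose and 0 fell with HAND1 sgRNA (4 at an unadjusted p under 0.05). In limma with ETV1 sgRNA against Luciferase sgRNA and between HAND1 sgRNA and ETV1 sgRNA 0 were called, with 0 and 3 at an unadjusted p under 0.05. Over all genes tested, 6.60%, 0.203% and 4.05% were called in these comparisons, and 20.3%, 8.20% and 15.4% had an unadjusted p under 0.05. The gene that rose was FBXO4, an F-box protein reported to help degrade cyclin D1, at 5.44, 6.71 and 7.85 FPKM with HAND1 sgRNA, 5.54, 5.18 and 5.40 with ETV1 sgRNA, and 4.59, 4.64 and 4.20 with Luciferase sgRNA. Its difference with HAND1 sgRNA was 0.47 (SE 0.110, limma adjusted p = 0.0300), and with ETV1 sgRNA 0.22 (adjusted p = 0.670). The call did not hold when HAND1 sgRNA replicate 2 or 3 was left out (adjusted p = 0.0947 and 0.101), without Luciferase sgRNA replicate 1, 2 or 3 (0.0648, 0.0699 and 0.0735), with the replicate number as a block (0.0567), with only the 2 groups in the fit (0.0717) and without the filter (0.0673). Among genes of this list not called, RBL2, a relative of RB1, was at 0.14 and E2F3 at -0.12 for HAND1 sgRNA against ETV1 sgRNA, and CDC37, a chaperone partner of CDK4, at -0.11 for ETV1 sgRNA against Luciferase sgRNA.

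Of 30 genes of DNA replication and S phase that E2F factors drive, all 30 were tested and 0 were called in any comparison, with 2, 3 and 1 at an unadjusted p under 0.05 for HAND1 sgRNA, ETV1 sgRNA and HAND1 sgRNA against ETV1 sgRNA. These are 6.67%, 10% and 3.33% of the list, against 20.3%, 8.20% and 15.4% of all genes tested, of which 6.60%, 0.203% and 4.05% were called. The list's medians were -0.02, -0.01 and -0.01. CDK1, the mitotic kinase, was at 0.24 (limma adjusted p = 0.127) for HAND1 sgRNA against Luciferase sgRNA, passed with quantile normalization (0.29, adjusted p = 0.0269) and with library weights (0.26, adjusted p = 0.0341), and was not called otherwise. CDT1, a replication licensing factor, was at 0.15 for HAND1 sgRNA (passing with library weights, 0.17, limma adjusted p = 0.0481) and 0.18 for ETV1 sgRNA against Luciferase sgRNA, and UNG, a DNA glycosylase, at -0.20 for ETV1 sgRNA against Luciferase sgRNA and at 0.21 for HAND1 sgRNA against ETV1 sgRNA.

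Of 23 tested p53 targets other than CDKN1A, 3 rose and 0 fell with HAND1 sgRNA against Luciferase sgRNA (13.0%, against 6.60% of all genes tested called in either direction). With ETV1 sgRNA against Luciferase sgRNA limma called 0, against 0.203% of all genes tested. With HAND1 sgRNA against ETV1 sgRNA 2 rose and 0 fell (8.70%, against 4.05% of all genes tested). An unadjusted p under 0.05 was found for 5, 2 and 7 in these 3 comparisons. These are 21.7%, 8.70% and 30.4% of the list, against 20.3%, 8.20% and 15.4% of all genes tested. TNFRSF10B, not called, was lower, at -0.20 with HAND1 sgRNA (limma unadjusted p = 0.0186, adjusted p = 0.140) and -0.16 with ETV1 sgRNA against Luciferase sgRNA (adjusted p = 0.595). The list's medians were 0.02, 0.02 and 0.01, against -0.01, -0.01 and -0.00 over all genes tested. Without Luciferase sgRNA replicate 3, 4 rose with HAND1 sgRNA against Luciferase sgRNA (17.4%, against 6.24% of all genes tested called in either direction). The added gene was BBC3, which encodes a protein that promotes apoptosis, at 0.72 (limma adjusted p = 0.00587) against 0.40 (adjusted p = 0.349) with all libraries. PLK2, a polo-like kinase also induced by serum, had 2.09, 2.51 and 2.86 FPKM with HAND1 sgRNA, 1.48, 1.40 and 1.90 with ETV1 sgRNA, and 0.891, 0.856 and 1.03 with Luciferase sgRNA, a difference of 0.85 for HAND1 sgRNA (SE 0.126, limma adjusted p = 0.00271) and 0.43 for ETV1 sgRNA (adjusted p = 0.369). BTG2, an antiproliferative gene that growth factors also induce, had 40.0, 39.7 and 41.1 FPKM with HAND1 sgRNA, 30.6, 32.8 and 30.6 with ETV1 sgRNA, and 31.5, 32.4 and 33.6 with Luciferase sgRNA, a rise of 0.30 over Luciferase sgRNA (limma adjusted p = 0.00587) and of 0.35 over ETV1 sgRNA (adjusted p = 0.00342). GDF15, a secreted stress cytokine, rose to 12.2 ± 1.16 FPKM with HAND1 sgRNA, against 7.77 ± 0.514 with ETV1 sgRNA and 8.26 ± 1.08 with Luciferase sgRNA (SD, n = 3 each; 0.52 over Luciferase sgRNA, limma adjusted p = 0.0125, and 0.59 over ETV1 sgRNA, adjusted p = 0.00857). Leaving out HAND1 sgRNA replicate 2 ended the call of GDF15 against Luciferase sgRNA (limma adjusted p = 0.0559). MDM2, the p53 inhibitor that p53 induces, was at 0.10 in both comparisons with Luciferase sgRNA (limma adjusted p = 0.461 and 0.780) and was named after its values were seen.

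Of 12 targets of FOXO factors, which also act on CDKN1B, 8 were tested and 0 were called in any comparison, with 4, 2 and 4 at an unadjusted p under 0.05 in the order above (the share over all genes tested was 20.3%, 8.20% and 15.4%). CITED2, a transcriptional coregulator, was at 0.23 for HAND1 sgRNA (limma adjusted p = 0.0688) and 0.31 for ETV1 sgRNA (adjusted p = 0.180) against Luciferase sgRNA, and its HAND1 sgRNA value passed with median centring (0.26, adjusted p = 0.0326), with quantile normalization (0.27, 0.0234), with library weights (0.26, 0.0163) and without HAND1 sgRNA replicate 1 (0.30, 0.0340). BNIP3, a mitophagy receptor, was at -0.33 for HAND1 sgRNA, BCL6, a repressor, at -0.29 for ETV1 sgRNA, and CCNG2, an atypical cyclin, at 0.30 for HAND1 sgRNA against ETV1 sgRNA. With library weights BNIP3 passed the threshold (-0.27, limma adjusted p = 0.0450), as did CCNG2 (0.33, adjusted p = 0.0461).

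**Figure D4:**
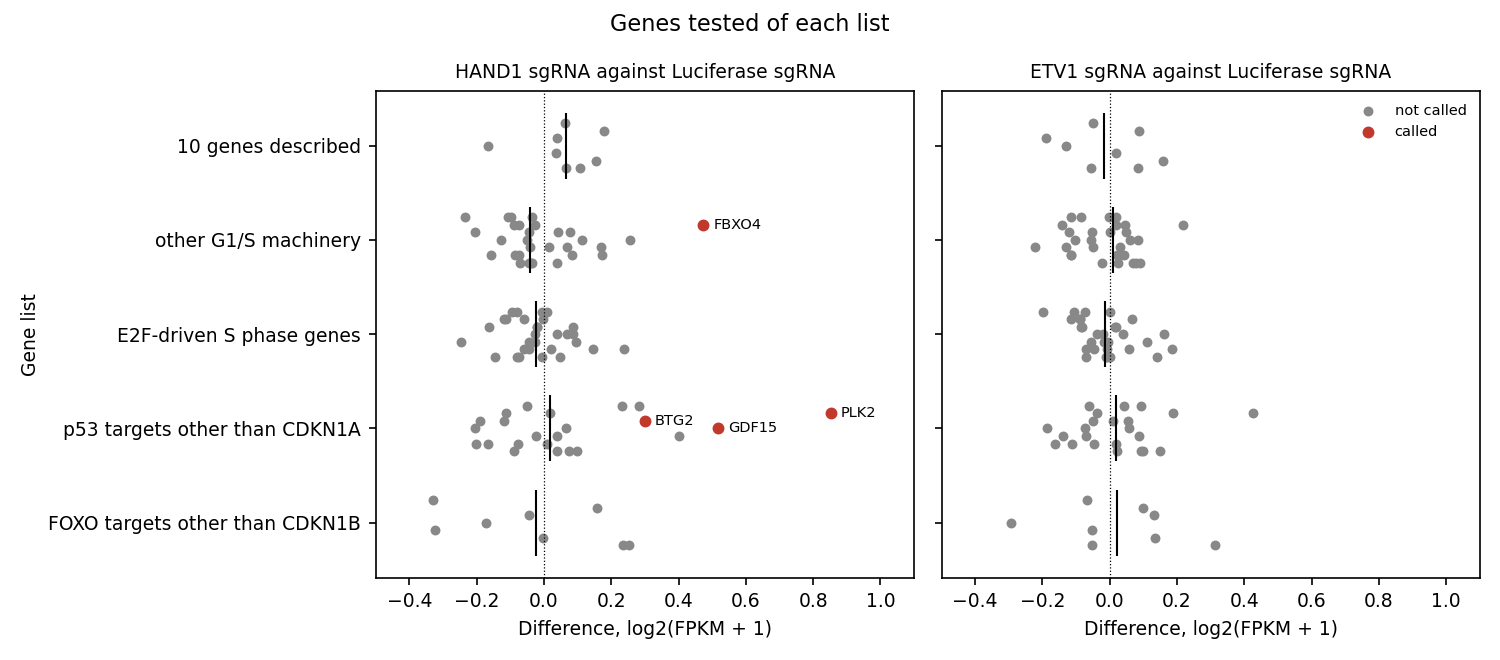
Log2(FPKM + 1) difference of each tested gene of 5 lists, for HAND1 sgRNA against Luciferase sgRNA and for ETV1 sgRNA against Luciferase sgRNA. Each point is a gene, red points were called and are named, and black bars are list medians, which lie between -0.04 and 0.06.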

How the data were processed

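RNA was taken from 9 GIST-T1 libraries made with a non-stranded kit, per the labels' protocols. STAR, Cufflinks and hg19 are named without versions or roles, per the submitters' processing notes; nothing used here states the annotation, filters or scaling between libraries. The deposited FPKM values, 1 per gene symbol and library, are not counts, so no count model was used. Values under 1e-06 were read as 0.

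Genes averaging 1 FPKM or more were put on the log2(FPKM + 1) scale. A model of the 3 groups over all 9 libraries was fitted to them in R 4.3.3 (limma 3.58.1, intensity trend), two-sided, with Benjamini-Hochberg adjustment across 11348 genes. It left 6 residual degrees of freedom plus 4.15 prior ones, and the code was tested on simulated data. Intervals are limma's 95% intervals for a single gene.

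Relative depth was read from the most frequent log2 ratio (to 0.01) of values between 0.001 and 0.1 FPKM. Transcript lengths, the longest per symbol in GENCODE (GRCh38), covered 93.0% of the genes tested. Promoters are RefSeq's (GRCh38.p14), another build than hg19; no coordinate was joined to a value. Overlapping and neighbouring genes come from RefSeq's GRCh38.p14 gene table, looked up by symbol.

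The 10 genes and the gene lists were chosen with earlier results of these data known. CDKN2B stands in the lists of S phase entry and of chromosome 9 neighbours. Named genes are the 10, the targets ETV1 and HAND1, the chromosome 9 neighbours, and from each list and comparison up to 4 called genes, those of lowest adjusted p, or else up to 2 that were not called; not all of these are named. The rule also takes the genes most correlated with a called gene of the 10, of which there was none. Alternatives changed the pseudocount (0.1 or 5) or the filter (none, or 5 FPKM), scaled by quantiles or by the median of genes above 10 FPKM, dropped the intensity trend, weighted libraries, fitted 2 groups alone, added a replicate block, or left out each library.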

Additional observations from a re-analysis of the deposited data

How the results depend on the processing

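With HAND1 sgRNA, 749 genes were called against Luciferase sgRNA and 460 against ETV1 sgRNA, and with ETV1 sgRNA 23 were called against Luciferase sgRNA. Leaving out each library gave 433 to 729, 271 to 592 and 11 to 28. The changes over 1.5 times were, in the first, those without HAND1 sgRNA replicates 1, 2 and 3 (489, 482 and 433) or without Luciferase sgRNA replicate 2 (488). In the second they came without HAND1 sgRNA replicates 1, 2 and 3 (271, 291 and 272) and ETV1 sgRNA replicates 1 and 2 (295 and 294). In the third they came without HAND1 sgRNA replicates 1 and 2 (15 each), without Luciferase sgRNA replicates 1 and 2 (13 and 14) or without ETV1 sgRNA replicates 1 and 3 (11 and 14). Library weights gave 1312 and 45 against Luciferase sgRNA, and a fit of 2 groups alone gave 14 for ETV1 sgRNA; the cause was not tested. With the replicate block the counts were 632, 364 and 16. Deviations of same-numbered libraries correlated at -0.146 to 0.138 and those of other pairs at -0.126 to 0.196. Of the 9 libraries, 2 correlated best with their own number, so no pairing by number was seen. With 3 libraries per group, these correlations cannot exclude a weak pairing.

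Over the alternatives the 8 cell cycle genes gave 151 values per comparison, of which 2 passed the threshold for HAND1 sgRNA against Luciferase sgRNA (CDKN1B and CDKN2C, given above) and 0 in the others. A minimum of 5 FPKM leaves CDKN1A untested. Signs near 0 turned. CDKN2A with ETV1 sgRNA against Luciferase sgRNA was at 0.0044 with quantile normalization and 0.054 with library weights (-0.15 to 0.13 with a library left out). CCND2 for HAND1 sgRNA against ETV1 sgRNA was at 0.017 with median centring, 0.012 with quantile normalization and 0.0028 with library weights (-0.048 to 0.053 with a library left out). With a library left out, CCND3 ranged over -0.0085 to 0.070 (HAND1 sgRNA) and -0.026 to 0.052 (ETV1 sgRNA) against Luciferase sgRNA and over -0.0043 to 0.038 between HAND1 sgRNA and ETV1 sgRNA. CDKN1A with HAND1 sgRNA against Luciferase sgRNA ranged over -0.0083 to 0.066, CDKN2A over -0.038 to 0.24, and CDKN2B-AS1 with ETV1 sgRNA over -0.14 to 0.059. Without read counts, the precision of CDK6, CDKN1C and CDKN2B is unknown beyond the spread between libraries.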
